A study of Arabidopsis thaliana with 6 samples.

Results

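The KNOX family of Arabidopsis thaliana consists of homeodomain transcription factors of the TALE superclass. The members examined here were the 8 loci STM (AT1G62360), KNAT1 (AT4G08150), KNAT2 (AT1G70510), KNAT6 (AT1G23380), KNAT3 (AT5G25220), KNAT4 (AT5G11060), KNAT5 (AT4G32040) and KNAT7 (AT1G62990). The rule names them by locus code and uses no measured value, although it was set with earlier results of these data known. All 8 were found among the 20777 loci measured. No filter on low values was applied.

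The plants studied were 35S::GRF5 seedlings of ecotype Col-0, in which the strong viral 35S promoter drives GRF5 in most tissues, and they were set against wild type Col-0 seedlings. GRF5 is a growth-regulating factor, a transcription factor that promotes cell proliferation in leaf primordia. Both groups were grown in vitro on MS medium at 22 °C under days of 16 h light and 8 h dark, and the vegetative part was collected at growth stage 1.03. Each group had 3 biological repeats, each hybridised to 1 ATH1 oligonucleotide array. The labels do not say how many independent transformants the line stands for.

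KNOX proteins act as dimers with BELL proteins, another branch of the TALE superclass. Class I genes (STM, KNAT1, KNAT2 and KNAT6) are active in the shoot meristem and its boundaries, where they keep cells undifferentiated, raise cytokinin and hold down gibberellin synthesis. They are shut off in leaf primordia. Class II genes (KNAT3, KNAT4, KNAT5 and KNAT7) are active in differentiating organs, leaves and vascular tissue among them. GRF proteins of rice and Arabidopsis have been reported to bind promoters of class I genes, KNAT2 among them, and to repress them. The comparison asks whether KNOX transcripts differed in plants with excess GRF5.

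GRF5 itself read 11.34, 11.42 and 12.08 in 35S::GRF5 replicates 1 to 3, against 4.73, 4.75 and 4.26 in wild type replicates 1 to 3, in log2 RMA units. All values below are in these units, and differences are given as 35S::GRF5 minus wild type. Array medians were 6.41 to 6.43 in 35S::GRF5 and 6.38 to 6.39 in wild type. Leaf markers were at the top of the range, with RCA, LHCA1 and PSAF at 13.86 to 14.32 in 35S::GRF5 and 13.80 to 14.32 in wild type. RBCS1A and LHCB1.1 are not in the table. The 4 floral identity genes AG, AP3, PI and SEP3 read 3.45 to 4.61 in 35S::GRF5 and 3.38 to 5.15 in wild type. SEP3 differed by -0.44 (limma adjusted p = 0.178), with the groups apart, and AG, AP3 and PI by 0.09, 0.11 and 0.17, with overlap. Of 4 measured root markers, COBL9, EXPA7 and PRP3 read 4.12 to 4.95 in 35S::GRF5 and 4.07 to 4.84 in wild type. PYK10, an endoplasmic reticulum body glucosidase also made in hypocotyls, read 11.31 to 11.77 in 35S::GRF5 and 11.10 to 11.24 in wild type.

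None of the 8 KNOX transcripts passed the threshold in limma, an adjusted p of 0.05 over all loci, while 0.77% of all loci did (0.284% higher and 0.486% lower). KNAT3 and KNAT1 had the widest differences, -0.32 and -0.26, both towards lower values in 35S::GRF5. The other 6 differed by -0.14 to 0.09. The median difference over the 8 members was -0.12, beside 0.02 over all loci, and 5 members had a negative difference, as did 9095 of all 20777 loci. At an unadjusted p under 0.05 there were 2 members, KNAT1 and KNAT3, beside 15.5% of all loci. With each gene's own variance in place of the moderated one, 0 of all loci passed, and GRF5 itself had an adjusted p of 0.149. The 0 calls among members in that fit therefore do not set them apart. Of the 20777 loci, 2656 fell below an unadjusted p of 0.05 there, and KNAT1 was the only member among them. No member's 95% interval reached a 2-fold change. The lowest bound was 0.66 times the wild-type level, for KNAT3, and the highest was 1.35 times, for KNAT6. These intervals are limits on array values. KNAT1, KNAT2, KNAT6 and KNAT7 read within the range of the floral identity genes, so a larger change in their transcripts could go unseen. For KNAT7 this rests on SEP3 alone, since AG, AP3 and PI read at most 4.51. RNA of the whole vegetative part mixes all its cells, so fewer cells that express a gene and less RNA per cell cannot be told apart.

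**Figure D1:**
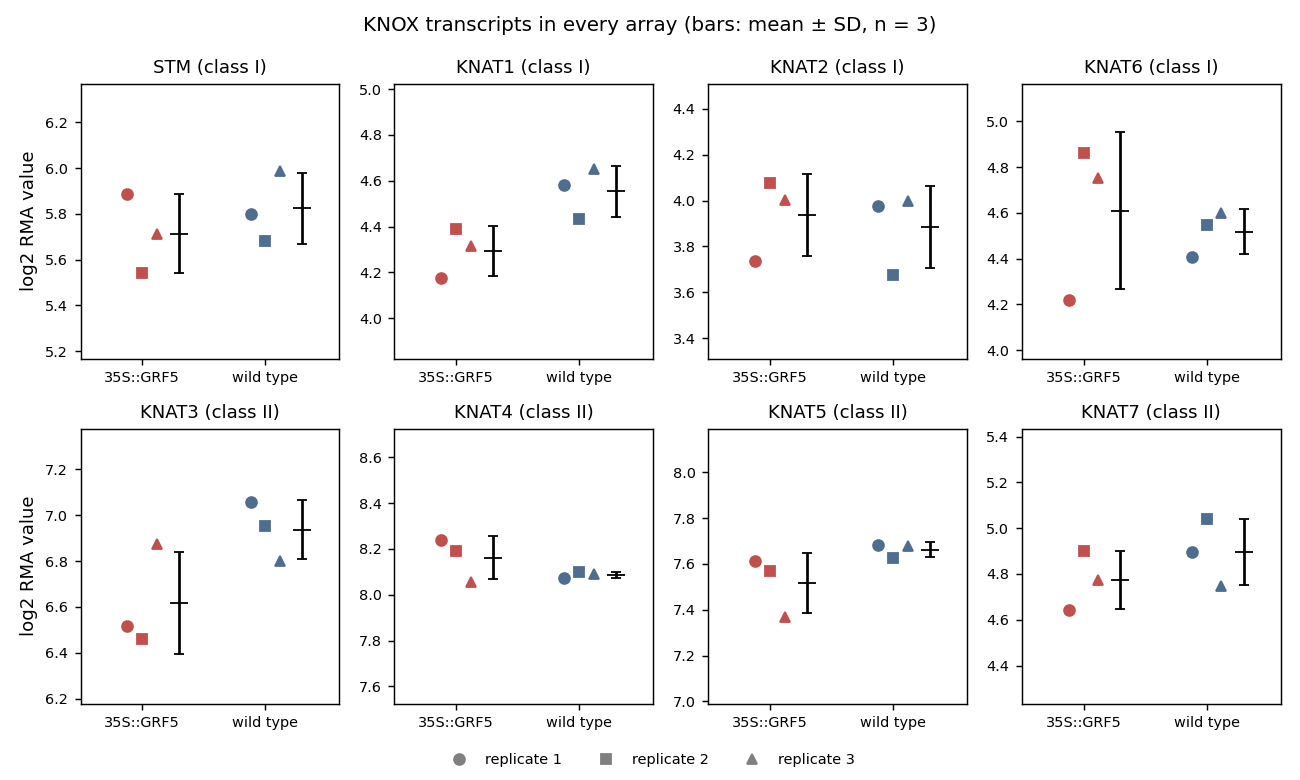
Log2 RMA value of each KNOX transcript in every array, with 35S::GRF5 at the left and wild type at the right of each panel. Symbols mark replicates 1 to 3, bars give the mean ± SD (n = 3), and every panel spans the same number of log2 units; the groups are apart for KNAT1 and KNAT5 and overlap for the other 6.

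Among class I genes, STM is needed to form and keep the shoot meristem. STM read 5.89, 5.54 and 5.71 in 35S::GRF5 replicates 1 to 3, against 5.80, 5.68 and 5.99 in wild type. The groups overlapped, and the lowest value was in 35S::GRF5 replicate 2. The difference was -0.11 (95% interval -0.37 to 0.15, n = 3 per group; limma adjusted p = 0.705). STM differed by -0.03 without 35S::GRF5 replicate 2 or without wild type replicate 3, so its size rested on single arrays.

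KNAT1, also called BREVIPEDICELLUS, controls internode and pedicel growth. KNAT1 read 4.18, 4.39 and 4.32 in 35S::GRF5 replicates 1 to 3, against 4.58, 4.43 and 4.65 in wild type. All 3 values of the line were below all 3 of wild type, by 0.04 at the closest pair. Such separation towards lower values was seen for 8.45% of all loci, and in either direction for 21.7%. The means were 4.29 ± 0.11 in 35S::GRF5 and 4.55 ± 0.11 in wild type (SD, n = 3 each), or a ratio of 0.835. The difference of -0.26 (-0.48 to -0.04) had an unadjusted p of 0.0253 and a limma adjusted p of 0.244. By p it ranked 2159 among all loci, and the largest unadjusted p among called loci was 0.000384.

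KNAT2 and KNAT6 are close paralogues. KNAT6 acts with STM in the meristem and at organ boundaries, and KNAT2 is the class I gene whose promoter GRF proteins have been reported to bind. KNAT2 read 3.74, 4.08 and 4.002 in 35S::GRF5 replicates 1 to 3, against 3.97, 3.68 and 3.999 in wild type. The groups were interleaved, with the highest value in the line and the lowest in wild type. The difference was 0.05 (-0.22 to 0.33; limma adjusted p = 0.875), and its lower bound corresponds to 0.857 times the wild-type level. Only 13.3% of all loci had a lower wild-type mean than KNAT2. A low array value cannot be separated from background without detection calls, so a decrease from such a level could go unseen. The same limit may hold for KNAT1, KNAT6 and KNAT7, whose values lay within the range of the floral identity genes (3.38 to 5.15). Of these genes only SEP3 read above 4.51. All KNAT7 values and some of KNAT1 and KNAT6 were above 4.51, so for them the comparison rests on SEP3.

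KNAT6 read 4.22, 4.86 and 4.75 in 35S::GRF5 replicates 1 to 3, against 4.41, 4.55 and 4.60 in wild type. The line held both the lowest and the 2 highest values, and its SD was 0.34, against 0.10 in wild type. The spread of KNAT6 within groups was larger than that of 93.3% of all loci. The difference was 0.09 (-0.26 to 0.44; limma adjusted p = 0.826). Without 35S::GRF5 replicate 1 it was 0.29 (unadjusted p = 0.0179, limma adjusted p = 0.219), and without 35S::GRF5 replicate 2 it was -0.03. The direction of KNAT6 is therefore not settled by these arrays.

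**Figure D2:**
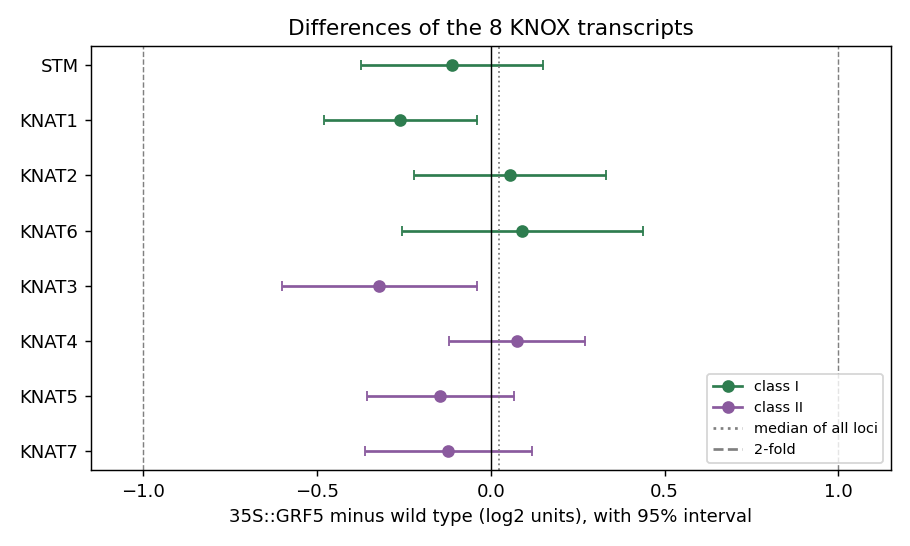
Difference of each KNOX transcript between 35S::GRF5 and wild type in log2 units, with its 95% interval from limma (n = 3 arrays per group). Points of KNAT1 (-0.26) and KNAT3 (-0.32) lie farthest to the left, and no interval reaches the dashed lines of a 2-fold change.

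Among class II genes, KNAT3 acts with KNAT4 and KNAT5 in differentiating organs and takes part in abscisic acid responses together with the BELL protein BLH1. KNAT3 read 6.52, 6.46 and 6.87 in 35S::GRF5 replicates 1 to 3, against 7.06, 6.95 and 6.80 in wild type. Replicates 1 and 2 of the line were below every wild-type array, while replicate 3 lay between wild type replicates 3 and 2. The means were 6.62 ± 0.22 in 35S::GRF5 and 6.94 ± 0.13 in wild type (SD, n = 3 each), or a ratio of 0.801. The difference of -0.32 (-0.60 to -0.04) had an unadjusted p of 0.0288 and a limma adjusted p of 0.258. An absolute difference smaller than this was found for 91.6% of all loci. Without 35S::GRF5 replicate 3 the difference was -0.45 and its adjusted p 0.133, the lowest adjusted p of any member under any alternative tried.

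KNAT4 read 8.24, 8.19 and 8.06 in 35S::GRF5 replicates 1 to 3, against 8.07, 8.10 and 8.09 in wild type. Replicates 1 and 2 of the line were above every wild-type array and replicate 3 was below them all. The SD was 0.10 in the line and 0.01 in wild type. The difference was 0.08 (-0.12 to 0.27; limma adjusted p = 0.732), the narrowest interval of the family. It was 0.04 when replicate 1 of the line was left out and 0.13 when replicate 3 was. Over the 6 arrays KNAT3 and KNAT4 had a Pearson correlation of -0.88, which is given as a description of 6 points shared by 2 groups.

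KNAT5 read 7.61, 7.57 and 7.37 in 35S::GRF5 replicates 1 to 3, against 7.68, 7.62 and 7.68 in wild type. All 3 values of the line were below all 3 of wild type, by 0.0099 at the closest pair, between replicate 1 of the line and wild type replicate 2. The difference was -0.14 (-0.36 to 0.07; limma adjusted p = 0.504), and without 35S::GRF5 replicate 3 it was -0.07. KNAT5 and KNAT1 were the 2 members without overlap between groups, both lower in 35S::GRF5. These 2 of 8 are 25%, beside 21.7% of all loci apart in either direction and 8.45% apart towards lower values. Whether the share of members differs from that of all loci was not tested.

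KNAT7 acts in secondary wall formation, where it represses wall synthesis in fibres. KNAT7 read 4.64, 4.90 and 4.78 in 35S::GRF5 replicates 1 to 3, against 4.90, 5.04 and 4.75 in wild type. The groups overlapped, with the lowest value in the line and the highest in wild type. The difference was -0.12 (-0.36 to 0.12; limma adjusted p = 0.638), and single arrays moved it. Leaving out replicate 1 or 2 of the line gave -0.06 or -0.19, and leaving out replicate 2 or 3 of wild type gave -0.05 or -0.20.

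The arrays did not contribute evenly. In 35S::GRF5 replicate 1, KNAT1, KNAT6 and KNAT7 had their lowest value of the 6 arrays. The root mean square deviation of the 8 members from their group mean was 0.19 in 35S::GRF5 replicate 1, 0.14 in replicate 2 and 0.12 in replicate 3, against 0.07, 0.11 and 0.11 in wild type replicates 1 to 3. Over all loci the same order of arrays held for the line, with 0.16, 0.14 and 0.13. Members STM, KNAT1, KNAT3, KNAT5 and KNAT7 kept a negative difference and KNAT4 a positive one under every alternative tried. KNAT2 and KNAT6 turned negative in some fits without 1 array. Of the alternatives, the replicate block, filters on level, trend and robust estimation and gene-wise variance could not change a difference.

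**Figure D3:**
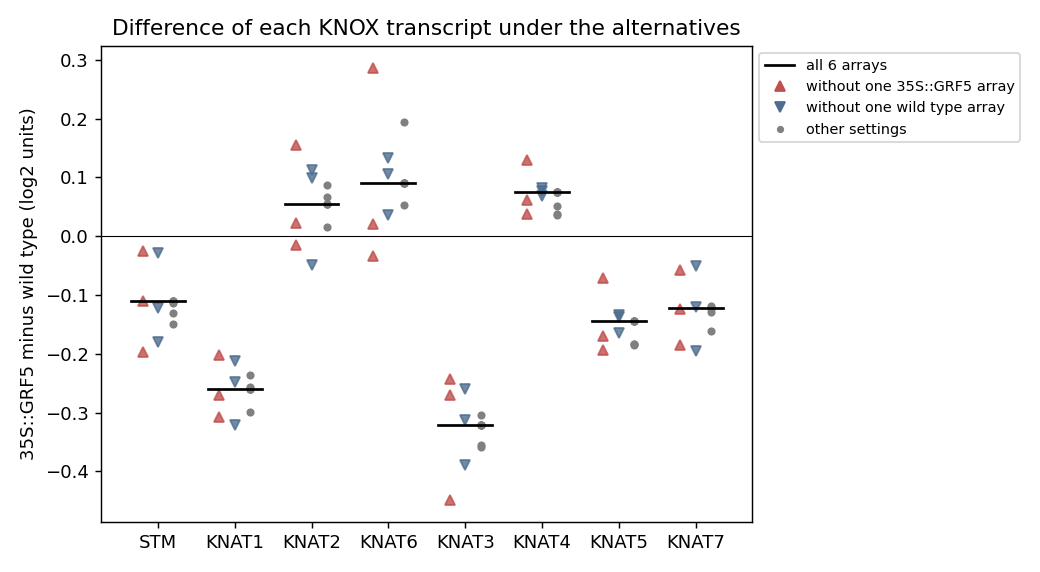
Difference between 35S::GRF5 and wild type in log2 units for each KNOX transcript, over all 6 arrays (line), without 1 array of either group (triangles) and under the other settings (dots). Values of KNAT1 and KNAT3 stay below 0 throughout, whereas those of KNAT2 and KNAT6 fall on both sides of it.

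Genes that control KNOX transcription, pair with KNOX proteins or are possible KNOX targets were then examined as lists. Of 13 upstream regulators, 0 passed limma over all loci and 3 had an unadjusted p under 0.05 (23.1% of them, against 15.5% over all loci); the median difference was 0.06. PKL, a chromatin remodelling factor that helps keep KNOX genes silent in leaves, read 8.30, 8.26 and 7.99 in 35S::GRF5, against 7.96, 7.66 and 7.81 in wild type. Its values were apart by group, with a difference of 0.37 (0.11 to 0.63; limma adjusted p = 0.169). CLF, the Polycomb histone methyltransferase that represses class I genes, differed by 0.41 (0.10 to 0.71; adjusted p = 0.202). CUC1, a NAC factor that acts with CUC2 to switch on STM between cotyledons, differed by -0.20 (-0.39 to -0.0013, limma adjusted p = 0.321). CUC1 read between 3.86 and 4.17 in all arrays, within the range of the floral identity genes, so a larger decrease could go unseen. CUC2 and CUC3 differed by 0.09 (limma adjusted p = 0.670) and -0.18 (limma adjusted p = 0.463), both with overlap. AS1 and AS2, which together silence some class I genes in leaf primordia, differed by 0.26 (adjusted p = 0.404) and 0.06 (adjusted p = 0.836), and the groups overlapped for both.

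BLH1, the BELL partner of KNAT3, fell in 35S::GRF5 and was the 1 called gene of the 17 measured BELL, OFP and other partner genes. BLH1 read 6.52, 6.98 and 6.73 in 35S::GRF5 replicates 1 to 3, against 7.78, 7.64 and 7.93 in wild type. The gap between the groups, 0.66 at the closest pair, exceeded the range within either group. The difference was -1.04 (-1.33 to -0.75; limma adjusted p = 0.0111), a ratio of 0.486. BLH1 had an adjusted p of 0.0698 without wild type replicate 1, where 17 of all loci passed. With each gene's own variance it had 0.238, where 0 of all loci passed and GRF5 itself had 0.149. BLH1 passed in the other 12 alternatives, and its difference was -1.16 to -0.93 without any 1 array.

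Of these 17 partner genes 5 had an unadjusted p under 0.05 (29.4% of them, against 15.5% over all loci), and the median difference was -0.03. BLH6, which pairs with KNAT7 in secondary wall formation, read 8.10, 7.89 and 7.97 in 35S::GRF5, against 7.69, 7.56 and 7.47 in wild type. Every value of the line was higher, with a difference of 0.42 (0.20 to 0.64), but the limma adjusted p was 0.0911. BLH3, a partner of STM, differed by -0.36 (-0.59 to -0.13; adjusted p = 0.151), and ATH1, a BELL gene of the vegetative meristem, by 0.29 (0.02 to 0.57; adjusted p = 0.292), or by 0.19 without 35S::GRF5 replicate 2. MYB75, an anthocyanin regulator that also binds KNAT7, differed by -0.57 (-1.03 to -0.10; adjusted p = 0.231), and by -0.28 without 35S::GRF5 replicate 1. OFP1, a repressor that binds class II KNOX proteins, differed by 0.01 and KNATM, a KNOX protein that lacks the homeodomain, by -0.03. OFP4 and OFP5 are not in the table.

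Of 10 hormone genes listed as possible KNOX targets, 0 passed limma over all loci. In the same fit 2 had an unadjusted p under 0.05 (20.0% of them, against 15.5% over all loci), with a median difference of 0.04. Whether KNOX proteins control each of these genes in such seedlings was not tested. GA20OX1, a gibberellin synthesis gene repressed by class I KNOX proteins, read 6.10, 6.08 and 6.04 in 35S::GRF5, against 6.01, 5.66 and 5.77 in wild type. Its groups were apart, with a difference of 0.26 (0.02 to 0.49; limma adjusted p = 0.273). GA3OX1, which makes bioactive gibberellin, read 7.57, 7.50 and 7.39 in 35S::GRF5, against 7.21, 6.94 and 7.09 in wild type, a difference of 0.41 (0.18 to 0.63; adjusted p = 0.105). GA20OX3 differed by 0.15 (adjusted p = 0.459), likewise without overlap, and by 0.09 without wild type replicate 2. GA20OX2 differed by 0.02 (adjusted p = 0.934), with overlap. The gibberellin-inactivating genes GA2OX2, GA2OX4 and GA2OX6 differed by 0.01, 0.04 and -0.12, and the cytokinin synthesis genes IPT5 and IPT7 by 0.04 and 0.06, all with overlapping groups. ARR5, a cytokinin response gene, read 5.75 to 6.26 over the 6 arrays. Its difference was -0.04 (limma adjusted p = 0.912), with overlap. GA20OX2, GA20OX3, GA2OX4, GA2OX6, IPT5 and IPT7 read 3.66 to 4.71 over the 6 arrays. That is within the range of the floral identity genes, so a decrease in them could go unseen.

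COMT1, a methyltransferase of lignin synthesis whose promoter KNAT1 binds, rose in 35S::GRF5 and was the 1 called gene of 12 secondary wall genes. COMT1 read 11.52, 11.39 and 11.35 in 35S::GRF5 replicates 1 to 3, against 10.88, 10.79 and 10.88 in wild type. The groups were 0.46 apart at the closest pair. The difference was 0.57 (0.37 to 0.77; limma adjusted p = 0.0248), a ratio of 1.48. COMT1 passed in 1 of the 6 fits without 1 array, the fit without 35S::GRF5 replicate 1; in the other 5 its adjusted p was 0.0653 to 0.127, with differences of 0.54 to 0.60. With each gene's own variance its adjusted p was 0.205, in a fit where 0 of all loci passed. The root marker PYK10 differed by 0.35 (limma adjusted p = 0.209), PRP3 by 0.19, COBL9 by -0.15 and EXPA7 by -0.05. The mean over 4 measured root markers was 6.18 to 6.36 in 35S::GRF5 and 6.08 to 6.22 in wild type; their part in the COMT1 difference was not tested.

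The wall list had a median difference of 0.14, and 4 of its 12 members had an unadjusted p under 0.05 (33.3% of them, against 15.5% over all loci). CESA7, a cellulose synthase of the secondary wall, differed by 0.45 (0.16 to 0.75; limma adjusted p = 0.148), and IRX9, a xylan synthesis gene, by 0.22 (0.03 to 0.42; adjusted p = 0.264). FRA8, also of xylan synthesis, differed by -0.28 (-0.52 to -0.04; adjusted p = 0.251). CCoAOMT1, another lignin methyltransferase whose promoter KNAT1 binds, differed by -0.10 (adjusted p = 0.628), and its groups overlapped.

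Genes with roles in the shoot meristem and its boundaries, where class I genes are active, were examined beside them. Whether each is confined to that tissue was not tested, so the list is no measure of meristem content. Of these 10 genes, 0 passed limma over all loci, 1 had an unadjusted p under 0.05 (15.5% over all loci), and the median difference was 0.02. CLV1, a receptor kinase that limits the stem cell pool, read 9.52, 9.36 and 9.30 in 35S::GRF5, against 9.11, 9.06 and 9.05 in wild type. Its groups were apart, with a difference of 0.32 (0.12 to 0.53; limma adjusted p = 0.148). WUS, which maintains stem cells, differed by -0.15 (adjusted p = 0.471) and the stem cell peptide gene CLV3 by -0.20 (adjusted p = 0.481). Without 35S::GRF5 replicate 1 they differed by -0.09 and -0.08, and CLV3 by -0.32 without 35S::GRF5 replicate 2. WUS read 3.59 to 3.91 and CLV3 4.02 to 4.49 over the 6 arrays. Both lay within the range of the floral identity genes, so a decrease could go unseen. The mean over the list was 5.35 to 5.55 in 35S::GRF5 and 5.37 to 5.44 in wild type.

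**Figure D4:**
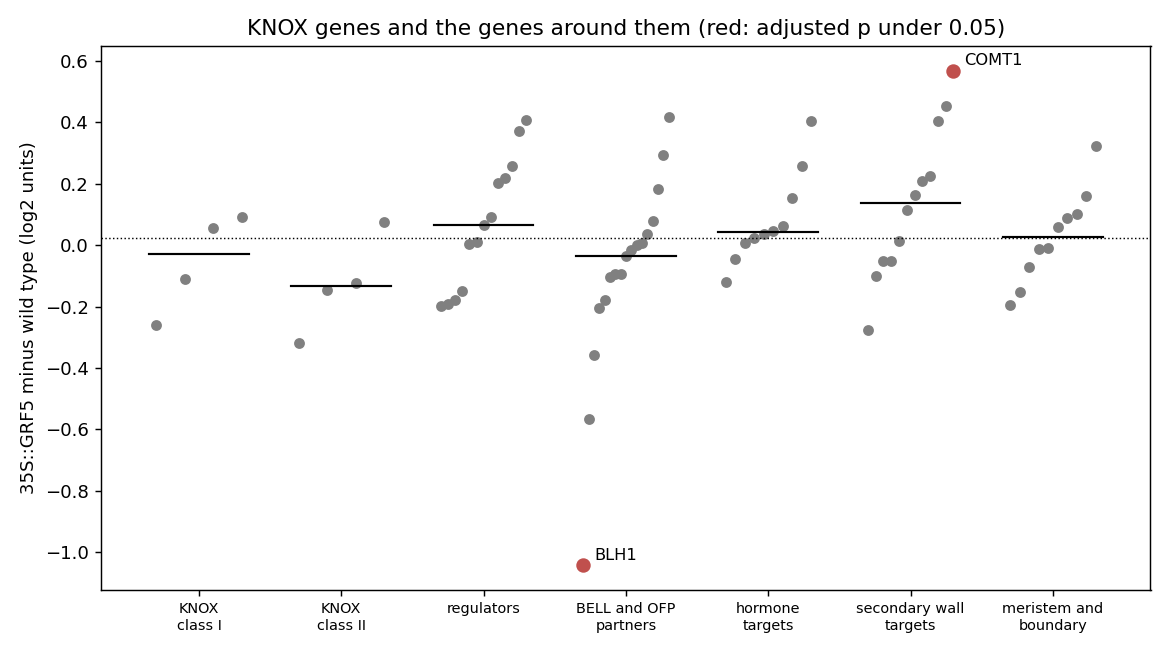
Difference between 35S::GRF5 and wild type in log2 units for every measured gene of the KNOX classes and of the lists around them, sorted within each list. Horizontal bars give each list's median and the dotted line that of all loci (0.02); BLH1 (-1.04) and COMT1 (0.57) are the called genes.

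The loci whose values followed each KNOX gene most closely over the 6 arrays were found by Pearson correlation among the loci at or above the median mean level. For KNAT1, the member with the smallest p, they were AT3G50910 (r = 0.988), UGT78D2, a flavonol glucosyltransferase gene (r = 0.987), and PGDH, a gene of serine synthesis (r = 0.985). Their differences were -0.32, -0.34 and -0.91, with limma adjusted p of 0.209, 0.151 and 0.0529. KNAT3 was followed most closely by AT2G04900 (r = 0.992), KNAT5 by AT5G17650 (r = 0.998), KNAT4 by AT5G08320 (r = 0.992) and KNAT7 by G3Pp4 (r = 0.995). STM was followed by AT1G76360 (r = 0.993), KNAT2 by AT2G29320 (r = 0.998) and KNAT6 by SLP3 (r = 0.995). With 6 arrays, 12 to 47 of up to 10389 loci searched reached a correlation of 0.95 with each member.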

How the data were processed

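Expression was measured on ATH1 arrays in 3 samples of 35S::GRF5 and 3 of wild type. The deposited values are log2 RMA values; that the authors used RMA is per the submitters' processing notes, without a version. RMA corrects background, brings arrays to one distribution and combines the probes of a transcript into 1 value. Each row is 1 locus; how probes were assigned to loci is not stated, so cross-hybridisation between KNOX paralogues was not tested. Names came from a RefSeq table of TAIR10.1, which held 20508 of 20777 loci. Precision is limited by the number of arrays: the 95% interval of a difference had a median reach of 0.23 log2 units in each direction.

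Groups were compared with the R 4.3.3 package limma, version 3.58.1 (two-sided moderated test from lmFit and eBayes, no block). P-values were adjusted by Benjamini-Hochberg across the whole table and called at 0.05. The labels give no batch. The code was tested on simulated data.

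The members, lists and rules were chosen with earlier results of these data known. Of 87 list entries, 82 were measured. Named were all members, called list genes, and in each of the 5 lists around the family (the leaf, root and flower markers come in addition) the 3 genes with the smallest p plus others at an unadjusted p under 0.05, up to 6. AS1, AS2, CUC2, CUC3, OFP1, KNATM, CCoAOMT1, GA20OX2, ARR5, the GA2OX and IPT genes and the nearest loci's differences were added for their roles after their values were seen. The 14 alternatives were the replicate block, filters at the 25th percentile and the median level, median centring, quantile normalization, trend and robust estimation, array weights, gene-wise variance, and leaving out each array.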

Additional observations from a re-analysis of the deposited data

How the results depend on the processing

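Over 106 refits of the 8 KNOX transcripts, 103 kept the direction and 0 passed the threshold, with adjusted p from 0.133 to 0.974. The replicate block, the filters on level, trend and robust estimation and gene-wise variance left each difference as it was. Only centring, quantile normalization, array weights and leaving out an array could change a direction, so the count of 103 overstates how stable the directions were. KNAT2 turned to -0.01 without 35S::GRF5 replicate 2 and to -0.049 without wild type replicate 2, within a range of -0.049 to 0.16 over the fits without 1 array, and KNAT6 to -0.034 without 35S::GRF5 replicate 2, within -0.034 to 0.29. KNAT2 has no value under either filter on low levels, and STM, KNAT1, KNAT6 and KNAT7 have none under the filter at the median. Correlations of deviations between arrays of the same number were -0.05, 0.06 and -0.11, and 2 of 6 arrays correlated best with their own number, so the numbers were not taken to pair the arrays; with the replicate block, 114 loci passed, KNAT1 had an adjusted p of 0.331 and KNAT3 of 0.338, and secondary wall calls numbered 0 (COMT1, 0.0606). Over all loci the 160 calls became 252 with trend and robust estimation, 294 with array weights and 0 with gene-wise variance, where 2656 loci had an unadjusted p under 0.05; they were 17 to 186 without 1 array, fewest without wild type replicate 1. With gene-wise variance GRF5 had a difference of 7.03 and an adjusted p of 0.149, and the calls among partner genes and secondary wall genes were 0 each. Without 1 array, the partner genes had 0 to 1 calls (0 without wild type replicate 1) and the secondary wall genes 0 to 1 (1 without 35S::GRF5 replicate 1). These refits hold fewer arrays, so lost calls can reflect lower precision, which was not tested. All of them hold the same number of arrays, and calls over all loci rose from 160 to 186 without 35S::GRF5 replicate 1. Causes of this spread were not tested.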

Other observations

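Averaged over the 4 class II genes, the log2 value was 6.75, 6.78 and 6.77 in 35S::GRF5 replicates 1 to 3, against 6.93, 6.93 and 6.83 in wild type, without overlap. Over the 4 class I genes it was 4.50, 4.72 and 4.69 in 35S::GRF5, against 4.69, 4.59 and 4.81 in wild type, with overlap. These averages were formed after the members' values were seen, KNAT4 ran against the class II average, and the difference between the classes was not tested.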
